A study of Mus musculus with 48 samples.

Results

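Short RNA was compared in the trigeminal ganglia (TG), which hold the sensory neurons of the face, 24 h after an intraperitoneal injection of lipopolysaccharide (LPS) or of saline. The samples were chosen by their labels as the TG libraries of the 24 h time point. There were 8 such libraries among 48 in the series, 4 from mice given LPS and 4 from mice given saline, with 2 female and 2 male libraries in each group. The mice were of the Balb/c strain and 2.5 months old. The LPS group received LPS of E. coli O55:B5 at a dose of 2.5 mg/kg, dissolved in 0.2 mL of saline, and the control group received the same volume of saline. The title of LPS replicate 2 spells LPS without its first letter, and its treatment label gives LPS. Both trigeminal ganglia of a mouse were taken, so that a library averages over neurons, glia, vessels, blood and whatever adjoining tissue came with the ganglion. In such bulk samples fewer cells of a type and less RNA per cell cannot be told apart. Replicates 1 and 2 are female and replicates 3 and 4 are male in each group, numbered in the order of the labels.

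LPS is a cell wall component of Gram-negative bacteria that is sensed by Toll-like receptor 4. Its signal reaches the transcription factor NF-kB, which switches on inflammatory genes and also a small set of microRNAs (miRNAs). MiRNAs are short RNAs that lower the output of messenger RNAs whose untranslated regions pair with the seed of the miRNA. MiR-155 is processed from an inducible transcript of activated immune cells, miR-146a is known as a brake on Toll-like receptor signalling, and miR-21 is induced in many injured and inflamed tissues. Fragments of transfer RNAs (tRFs) are cut from mature tRNAs, and 5′-half fragments, which end in the anticodon loop, are known to accumulate in stressed cells.

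The mature sequences of the 6 miRNAs on which most of the description rests are given first, with the seed in capitals (bases 2 to 8), from RefSeq on the build GRCm38.p6. They show that miR-146a-5p and miR-146b-5p share a seed, whereas miR-21a-5p, miR-155-5p, miR-27a-5p and miR-6538 each have their own.
miR-21a-5p: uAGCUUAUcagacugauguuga
miR-155-5p: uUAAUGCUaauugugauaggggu
miR-146a-5p: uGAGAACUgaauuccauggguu
miR-146b-5p: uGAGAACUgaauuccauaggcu
miR-27a-5p: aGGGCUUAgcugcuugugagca
miR-6538: cGCGGGCUccggggcggcg

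On that build, miR-21a-5p lies on the minus strand at chr11:86584120-86584141, where the annotation also places an exon of the protein-coding gene Vmp1 on the same strand. MiR-155-5p lies on the plus strand at chr16:84714143-84714165, in an exon of the long non-coding gene Mir155hg. MiR-146a-5p lies at chr11:43374435-43374456 on the minus strand, with no other gene annotated there than its own. MiR-146b-5p lies at chr19:46342790-46342811 on the plus strand, within the gene Mfsd13a but outside its exons. MiR-27a-5p lies at chr8:84208685-84208706 on the plus strand, with no other gene annotated there. MiR-6538 lies at chr12:26414970-26414988 on the minus strand, within the gene Rnf144a but outside its exons.

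The 8 libraries held 3497119 to 4971966 miRNA counts and 91870 to 429382 tRF counts. The values called CPM here are counts per 1000000 counts of the library, scaled by edgeR's TMM factors (trimmed mean of M-values), so that the tRF values of 1 library do not sum to the nominal total. The miR-183 cluster, which marks sensory neurons, made up 5.67% to 8.18% of the miRNA counts in the 24 TG libraries and 0.024% to 2.26% in the 24 libraries of SCG, the superior cervical ganglion of the sympathetic chain. The tissue label of the TG libraries was thus borne by its markers. Within TG at 24 h that share was 6.09% to 7.28% after LPS and 5.79% to 7.41% after saline. Libraries of the same group were about as unlike as libraries of different groups: the median Pearson correlation of log2 miRNA values was 0.981 between LPS libraries, 0.984 between saline libraries and 0.982 between an LPS and a saline library. No pair of libraries agreed within counting noise.

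Of 538 miRNAs tested, 2 rose after LPS and 0 fell at an adjusted p under 0.05, which is 0.372% of those tested (edgeR quasi-likelihood test, Benjamini-Hochberg adjustment over all miRNAs tested). The 2 were miR-21a-5p and miR-155-5p. At an unadjusted p under 0.05 there were 23 miRNAs, 15 of them higher and 8 lower after LPS. The median log2 fold change over all 538 was 0.00, and 272 lay above 0. All 4 LPS libraries exceeded all 4 saline libraries for 7 miRNAs (1.3%) and lay under all 4 for 2 miRNAs (0.372%). Of the 70 ways to assign 8 libraries as 4 against 4, 1 puts all LPS libraries above and 1 puts them all under. A lack of overlap can thus arise without an effect of LPS.

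MiR-21a-5p was at 13723, 8719, 11760 and 17684 CPM in the LPS libraries, against 5886, 5776, 4783 and 4879 CPM in the saline libraries. Every LPS library exceeded every saline library, and the LPS libraries also spread more widely. The rise was 1.28 ± 0.17 on the log2 scale (SE, edgeR adjusted p = 0.000142). The fold change stayed between 1.08 and 1.47 when any 1 of the 8 libraries was left out, and it passed the threshold each time. In a fit of the 8 libraries alone it was 1.28 with an adjusted p of 0.203. The passenger strand of the same hairpin, miR-21a-3p, was at 0.996, 1.62, 0.718 and 1.92 CPM after LPS and at 0.198, 0.442, 0.735 and 0 CPM after saline, too low to enter the test.

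MiR-155-5p was a rare miRNA in this ganglion, at 36.8, 25.4, 21.5 and 48.8 CPM in the LPS libraries and at 10.3, 8.62, 5.39 and 10.5 CPM in the saline libraries. The groups did not overlap, and the lowest LPS library was above the highest saline library. The rise was 1.93 ± 0.36 (log2, SE, edgeR adjusted p = 0.00819). The call rested on LPS replicate 4 and saline replicate 3: without the first the rise was 1.65 with an adjusted p of 0.0597, and without the second it was 1.74 with an adjusted p of 0.0660. In the 8 libraries alone it was 1.93 with an adjusted p of 0.103. Its passenger strand, miR-155-3p, was at 0.996, 0.27, 0 and 0.239 CPM after LPS and at 0 in all 4 saline libraries.

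**Figure D1:**
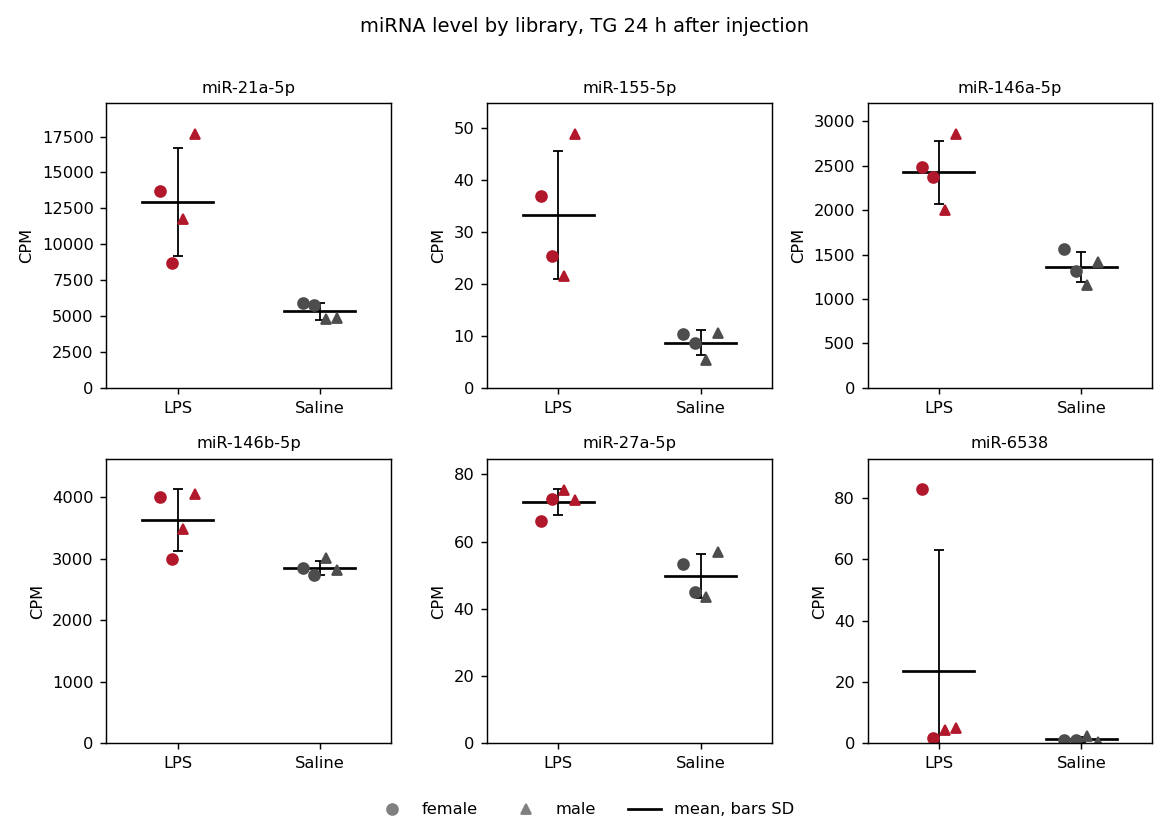
Level of 6 miRNAs in each TG library 24 h after injection (y axis, CPM from 0; x axis, LPS and saline). Circles are female and triangles male libraries, with the mean as a line and the SD as a bar (n = 4 each). MiR-21a-5p, miR-155-5p, miR-146a-5p and miR-27a-5p show no overlap of the groups, and the mean of miR-6538 after LPS is carried by 1 library at 82.9 CPM.

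MiR-146a-5p was at 2485, 2372, 2001 and 2860 CPM in the LPS libraries and at 1564, 1315, 1154 and 1414 CPM in the saline libraries. The groups did not overlap either, yet the difference of 0.83 ± 0.20 (log2, SE) gave an adjusted p of 0.0665 in edgeR and was not called. It was called by DESeq2 (adjusted p = 0.00813). In edgeR it was called without a term for sex (adjusted p = 0.0451), without the TG libraries of 7 d (0.00149), in the 8 libraries alone (0.0487) and with no expression filter (1.17e-10). MiR-146b-5p, its relative from another chromosome, was at 3998, 2992, 3482 and 4052 CPM after LPS and at 2853, 2728, 3011 and 2817 CPM after saline. Here LPS replicate 2 overlapped the saline group, and the difference of 0.35 ± 0.13 had an edgeR adjusted p of 0.703.

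Summing counts over miRNAs with the same seed gave 390 families, of which 2 rose and 0 fell (0.513%, edgeR). They were the families of miR-21a-5p and miR-155-5p. The first sum was almost wholly miR-21a-5p, since its seed partner miR-21c reached at most 0.249 CPM in any library. The family sums have their own library totals, over miRNAs with a RefSeq sequence (93.4% of miRNA counts), and their own TMM factors. They are thus not plain sums of the CPM given above. The family of miR-146a-5p and miR-146b-5p was at 6939, 5634, 5662 and 7540 CPM in the LPS libraries and at 4994, 4317, 4452 and 4594 CPM in the saline libraries. These sums did not overlap between groups, with a difference of 0.49 ± 0.15 (log2, SE) and an edgeR adjusted p of 0.244. The miR-146 family was called in the 8 libraries alone (0.52, edgeR adjusted p = 0.0398), without the TG libraries of 7 d (0.53, 0.00480) and with no expression filter (0.53, 1.11e-05).

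MiR-27a-5p, the less abundant arm of a hairpin that also gives miR-27a-3p, was at 66.2, 72.7, 75.4 and 72.3 CPM in the LPS libraries and at 53.3, 44.9, 43.6 and 57.0 CPM in the saline libraries. The groups did not overlap, and the difference was 0.53 ± 0.14 (log2, SE, edgeR adjusted p = 0.121). The major arm, miR-27a-3p, was at 5481 to 6473 CPM after LPS and at 5508 to 6117 CPM after saline, with a difference of 0.09 ± 0.10. MiR-6538 had the highest fold change among miRNAs with an unadjusted p under 0.05, 3.75 ± 0.98 on the log2 scale (edgeR adjusted p = 0.127). It was at 82.9, 1.89, 4.31 and 5.03 CPM after LPS and at 0.99, 1.10, 2.45 and 0.582 CPM after saline. LPS replicate 1 stood alone, and without it the difference was 1.74. MiR-6538 was called without LPS replicate 2 (4.18, edgeR adjusted p = 0.0104) and with no expression filter (3.73, 6.39e-23).

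The other miRNAs with small p-values were rare. MiR-362-3p was at 4.98, 4.05, 5.74 and 5.75 CPM after LPS and at 3.37, 2.21, 3.68 and 1.16 CPM after saline, with no overlap (log2 0.93 ± 0.36, edgeR adjusted p = 0.887). MiR-223-5p, from a hairpin known for its expression in neutrophils and monocytes, was at 21.2, 14.6, 15.3 and 28 CPM after LPS and at 13.5, 17.5, 9.80 and 13.7 CPM after saline, and the groups overlapped (0.54 ± 0.23). MiR-1968-5p was at 0, 0.811, 0.718 and 1.20 CPM after LPS and at 2.97, 2.43, 1.47 and 2.62 CPM after saline, the lowest fold change of this set at -1.80 ± 0.58 with an edgeR adjusted p of 0.431. The groups of miR-1968-5p did not overlap. MiR-467c-5p was the other miRNA with all LPS libraries under all saline libraries, at 3.49, 3.78, 2.87 and 2.15 CPM after LPS and 6.93, 4.86, 4.66 and 4.65 CPM after saline (-0.79 ± 0.37). Differences of -0.94 ± 0.32 for miR-3061-5p, -1.58 ± 0.58 for miR-6958-3p, -0.60 ± 0.25 for miR-199b-5p, -0.91 ± 0.43 for miR-7689-3p and -0.88 ± 0.41 for miR-450b-5p had overlapping groups, and none was called by edgeR.

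MiR-741-3p, miR-871-3p, miR-881-3p and miR-465c-5p, which are all among the miRNAs named by p or fold change, lie within 1 stretch of the X chromosome, at chrX:66776760-66839121 on GRCm38.p6. The stretch was looked at after these values were seen. MiR-741-3p was at 2.49, 2.70, 4.79 and 3.35 CPM after LPS and at 1.19, 0.663, 0.245 and 1.16 CPM after saline, with no overlap (log2 2.02 ± 0.62, edgeR adjusted p = 0.315). MiR-881-3p, the most abundant of the 4, was at 15.2, 4.05, 18 and 14.6 CPM after LPS and at 2.38, 5.52, 3.43 and 3.49 CPM after saline. LPS replicate 2 lay among the saline libraries. The count table held 34 mature miRNAs of the stretch, of which 14 had no count in the 8 libraries and 7 were tested. All 7 had a fold change above 0, beside 272 of all 538 miRNAs tested, and none was called. The 4 miRNAs that defined the stretch are among these 7, so that their direction was known beforehand. The others, miR-465a-3p, miR-465b-3p and miR-465c-3p, had identical values (log2 1.05 ± 0.77), so that their reads cannot be told apart. Summed over the stretch, the level was 40.3, 15.4, 51.2 and 36.2 CPM after LPS and 9.11, 14.8, 14.2 and 10.2 CPM after saline. That sum holds the identical miR-465-3p values 3 times. With these counted once it was 33.9, 13.2, 44.5 and 33.8 CPM after LPS and 7.92, 13.04, 9.80 and 9.01 CPM after saline. Neither sum overlapped between groups, although LPS replicate 2 was close to saline replicate 2. Both sums hold the 4 miRNAs by which the stretch was chosen and are no separate evidence.

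**Figure D2:**
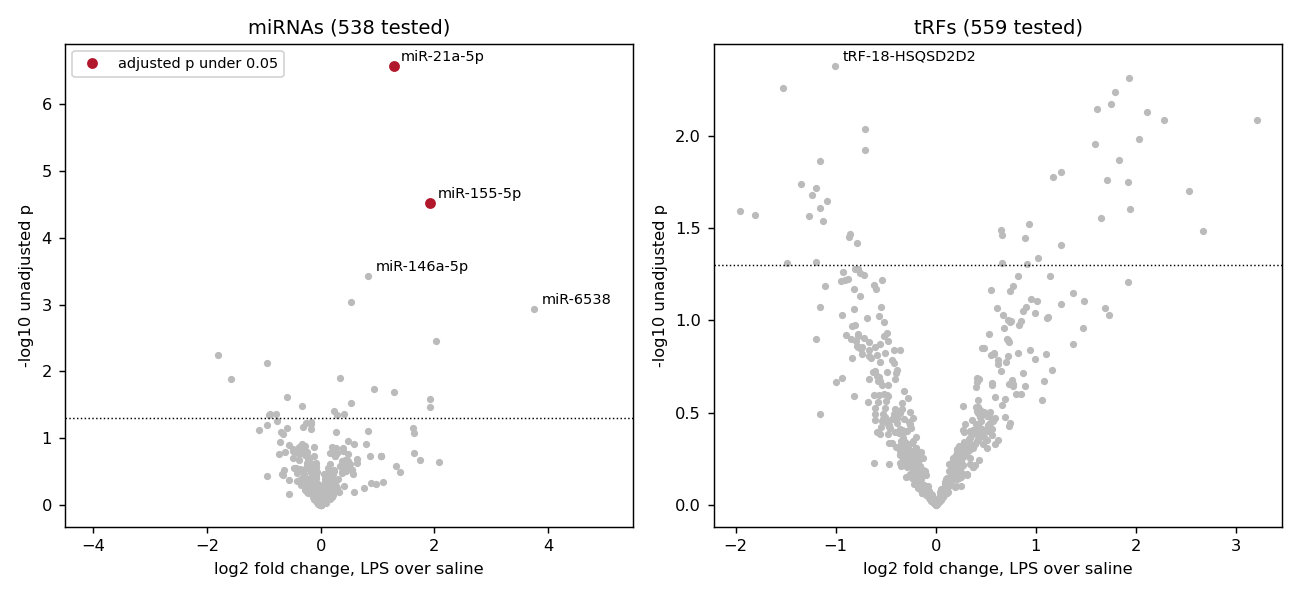
Log2 fold change of LPS over saline (x axis) against the unadjusted p on a -log10 scale (y axis) for each of 538 miRNAs and 559 tRFs tested in TG at 24 h. The dotted line is an unadjusted p of 0.05. MiR-21a-5p and miR-155-5p, in red, are the 2 features with an adjusted p under 0.05, and no tRF is.

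The most abundant miRNAs were at nearly the same level in both groups, with overlap throughout. Between 58.1% and 62.0% of the counts of a library came from its own 10 most abundant miRNAs. Of the 10 with the highest mean over the 8 libraries, the first, miR-99a-5p, was at 131315 ± 5224 CPM after LPS and 130765 ± 5684 CPM after saline (SD, n = 4 each). MiR-26a-5p was at 105351 ± 7419 CPM after LPS and at 106850 ± 3260 CPM after saline. The remaining 8 were let-7f-5p, let-7i-5p, let-7c-5p, let-7a-5p, miR-183-5p, let-7g-5p, miR-148a-3p and miR-27b-3p. MiR-183-5p, the sensory organ miRNA, averaged 39809 ± 3409 CPM after LPS and 38951 ± 4896 CPM after saline.

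Among 20 miRNAs listed as NF-kB or LPS responsive, 15 were tested, 2 rose and 0 fell, beside 2 and 0 of all 538 tested. The median log2 fold change was 0.11 with 10 above 0, beside 0.00 with 272 above 0 over all miRNAs tested. The list includes the miRNAs that led the comparison, and it was drawn up with earlier results of these data known. MiR-132-3p (log2 0.83 ± 0.45) and miR-212-3p (1.63 ± 0.86) are also on the list, were not called and overlapped between groups. The other 9 tested members, leaving out miR-21a-5p, miR-155-5p, miR-146a-5p and miR-146b-5p, had differences between -0.29 and 0.17. MiR-221-3p was at 115 to 150 CPM after LPS and at 104 to 127 CPM after saline (log2 0.11 ± 0.16). MiR-187-3p, described in human monocytes as induced through interleukin-10, was at 23.9 to 32.6 CPM after LPS and at 29.4 to 31.4 CPM after saline (-0.14 ± 0.24). MiR-9-5p, abundant in neurons, was at 9790 to 11384 CPM after LPS and at 10848 to 12412 CPM after saline (-0.11 ± 0.12). MiR-147-3p, a macrophage miRNA, reached 1.20 CPM at most and was not tested.

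Markers of blood and of other tissues were looked at in the same libraries. Of 10 leukocyte miRNAs 9 were tested and none was called, with a median log2 fold change of -0.00, and their summed level was 479 to 628 CPM after LPS and 384 to 832 CPM after saline. MiR-142a-5p, restricted to blood cells, was at 135, 216, 142 and 186 CPM after LPS and at 170, 373, 94.1 and 105 CPM after saline, overlapping widely. The 7 red cell miRNAs summed to 1555 to 4209 CPM after LPS and to 1830 to 8262 CPM after saline, with saline replicate 2 highest, and none was called. MiR-486a-5p (539 to 1136 CPM after LPS) and miR-486b-5p (578 to 1214 CPM) were close in every library, and whether they share reads was not tested. The 2 endothelial miRNAs had a median of 0.02 and summed to 16407 to 20930 CPM after LPS and 14762 to 22701 CPM after saline. MiR-21a-5p and miR-155-5p are also made by leukocytes, and the part of cell number in their rise was not tested.

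Every neuronal and glial miRNA tested overlapped between the groups. None of 12 neuronal miRNAs tested was called, with a median of -0.03 and differences between -0.13 and 0.21 on the log2 scale. The 6 miRNAs of the miR-183 cluster had a median of 0.05, and none was called. The 5 miRNAs of myelinating glia had a median of -0.02 and summed to 7513 to 8154 CPM after LPS and to 7343 to 8201 CPM after saline. The 49 tested miRNAs of the imprinted Dlk1-Dio3 cluster had a median of 0.00 with 25 above 0, and the 10 of the let-7 family a median of -0.00. Of 20 miRNAs studied in rodent pain models 2 rose, again miR-21a-5p and miR-155-5p, against 2 of all 538 tested (0.372%). The median of this list was 0.04 with 14 above 0, beside 0.00 with 272 above 0 over all 538. This list was also drawn up with earlier results of these data known.

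The remaining lists held no called miRNA either. The 9 smooth muscle and mesenchyme miRNAs had the lowest median of the lists, -0.20 with 3 above 0. The 14 miRNAs of the miR-17-92 cluster and its paralogs, which are linked to cell division, had a median of 0.02 over the 13 tested. Medians were 0.02 for the 3 tested of the p53-linked miR-34 group, -0.02 for the 3 of the liver and -0.01 for the 4 of the Hox clusters. MiR-210-3p, the hypoxia miRNA, had a difference of -0.03.

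Marker lists of tissues that adjoin the ganglion differed widely between libraries of the same group. The 5 pituitary and neuroendocrine miRNAs had a median log2 fold change of 1.63, and none was called. MiR-375-3p, an endocrine miRNA, was at 758, 40.01, 4260 and 113 CPM after LPS and at 155, 72.7, 925 and 108 CPM after saline. LPS replicate 3 was highest and LPS replicate 1 and saline replicate 3 came next. MiR-7a-5p, abundant in the pituitary, was at 7066, 4109, 25288 and 4073 CPM after LPS and at 4089, 4665, 9098 and 4451 CPM after saline, with the same libraries high. MiR-7a-1-3p, a rare member of the same list, did not follow them. It was at 3.98, 4.87, 5.27 and 3.83 CPM after LPS and at 2.97, 5.52, 1.96 and 5.82 CPM after saline. The 8 epithelial miRNAs had a median of 0.87, all 8 above 0, and none was called. Their sum was 108 to 2077 CPM after LPS and 115 to 1617 CPM after saline. MiR-200a-3p was at 279, 5.41, 588 and 386 CPM after LPS and at 42.2, 26.96, 594 and 15.1 CPM after saline. LPS replicates 1, 3 and 4 and saline replicate 3 were thus high, and miR-200c-3p was high in the same 4 libraries, at 180, 9.73, 693 and 151 CPM after LPS and at 41.2, 20.8, 311 and 16.9 CPM after saline. Not all epithelial miRNAs followed. MiR-203-3p was at 56.8, 81.6, 63.9 and 99.4 CPM after LPS and at 88.3, 65.2, 43.4 and 64.8 CPM after saline. MiR-205-5p was lower in LPS replicate 4 (1.92 CPM) than in saline replicate 1 (2.97 CPM).

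The activity-induced miRNAs of the miR-132 and miR-212 hairpins, which are switched on by neuronal firing through the factor CREB, were highest in LPS replicate 3. MiR-132-3p was at 22.9, 17, 64.6 and 20.8 CPM after LPS and at 19.4, 13.7, 20.6 and 16 CPM after saline. LPS replicate 3 stood above the other 7 libraries, which overlapped, and it was also the library with the highest summed level of the pituitary and neuroendocrine list. MiR-212-3p, with a log2 difference of 1.63, miR-132-5p with 0.42 and miR-212-5p with 0.25 were also highest in that library. None of these miRNAs was called by edgeR, and with miR-134-5p, an activity-linked neuronal miRNA from another locus at -0.03, the list of 5 had a median of 0.42. The part of adjoining tissue in this value was not tested. Without LPS replicate 3, miR-21a-5p rose by 1.33 (edgeR adjusted p = 0.00037) and miR-155-5p by 2.09 (0.00629). LPS replicates 1 and 4 were also high for miR-200a-3p, and the part of adjoining tissue in these rises was not tested. Of 6 muscle miRNAs tested 5 were highest in LPS replicate 4 and saline replicate 1, while miR-499-5p was at its lowest in LPS replicate 4, at 16.5 CPM. MiR-1a-3p was at 5890, 5644, 5574 and 12341 CPM after LPS and at 13491, 4931, 6088 and 6033 CPM after saline.

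**Figure D3:**
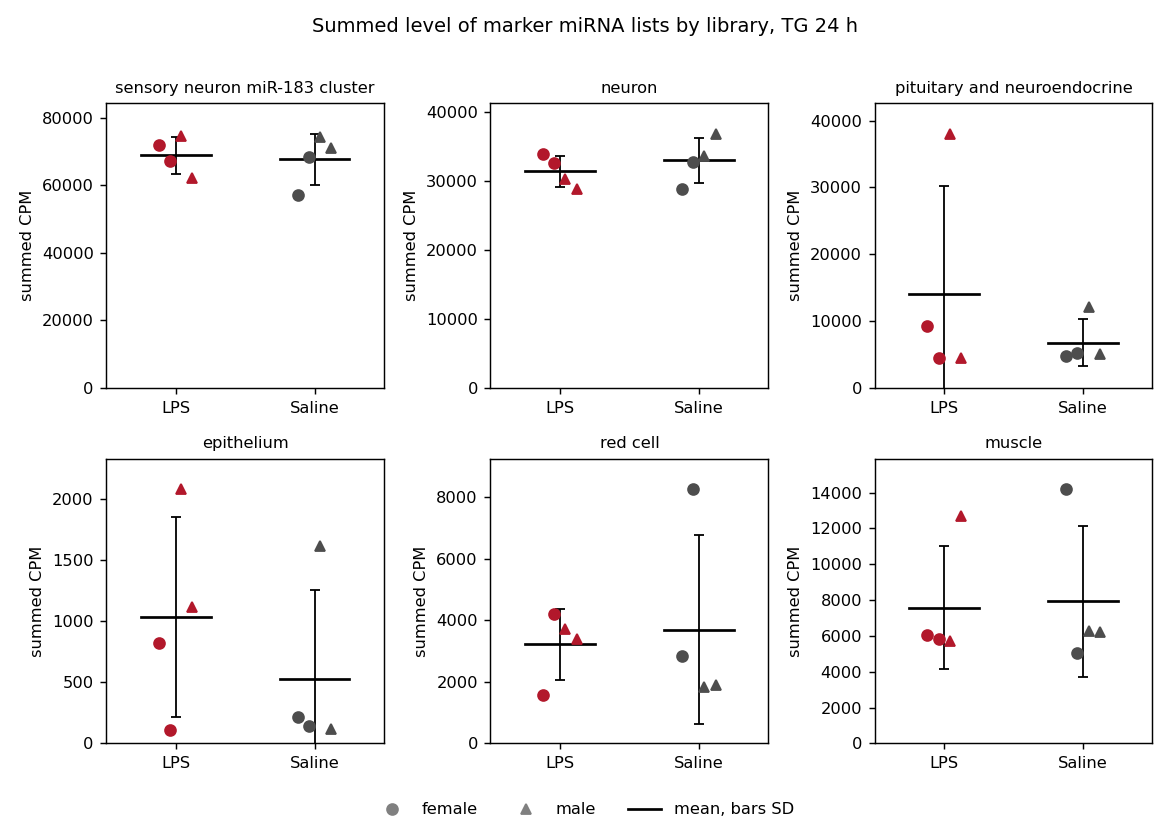
Summed CPM of 6 marker miRNA lists in each TG library at 24 h (y axis from 0; x axis, LPS and saline; circles female, triangles male; mean and SD, n = 4 each). The neuronal lists are level across the groups, and the pituitary list reaches 38016 CPM in LPS replicate 3.

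The 24 h effect was set beside the other times and the other ganglion. Each time has its own saline libraries. MiR-21a-5p had differences of 0.34 ± 0.17 at 4 h, 1.28 ± 0.17 at 24 h and 0.66 ± 0.17 at 7 d. MiR-155-5p had differences of 1.5 ± 0.38, 1.93 ± 0.36 and 1.47 ± 0.37 at those times. MiR-146a-5p had differences of 0.04 ± 0.19, 0.83 ± 0.20 and 1.45 ± 0.20, so that its highest value came at 7 d. Tested as a difference between times, 0 of 538 miRNAs were called for 24 h against 4 h (0%, edgeR, 16 at an unadjusted p under 0.05) and 0 for 24 h against 7 d (0%, edgeR, 72 at an unadjusted p under 0.05). The effect on miR-21a-5p at 24 h exceeded that at 4 h by 0.94 ± 0.24 (unadjusted p = 0.000777, edgeR adjusted p = 0.418). For miR-708-3p, which did not stand out at 24 h, the 24 h effect exceeded that at 7 d by 1.99 ± 0.41 (edgeR adjusted p = 0.0532).

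In a fit of all 48 libraries, 0 of 577 miRNAs had a different LPS effect in TG than in SCG at 24 h (0%, edgeR, 20 at an unadjusted p under 0.05). MiR-21a-5p had 1.28 ± 0.24 in TG and 2.10 ± 0.25 in SCG, a difference of -0.82 ± 0.34 with an edgeR adjusted p of 0.987. MiR-155-5p had 1.92 ± 0.37 in TG and 3.02 ± 0.38 in SCG, a difference of -1.10 ± 0.51 with an edgeR adjusted p of 1.00. MiR-146a-5p had 0.83 ± 0.26 in TG and 1.24 ± 0.26 in SCG. The estimates of these 3 miRNAs were lower in TG, and the test did not separate the ganglia. SCG saline replicate 1 of 24 h had 2.26% of its counts from the miR-183 cluster, and without it, a choice made after seeing the data, the differences were -0.81, -1.08 and -0.51. MiR-6538 had the smallest p, with an effect higher in TG by 6.29 ± 1.52 (edgeR adjusted p = 0.0899), and by 4.94 without that SCG library (0.848). Without TG LPS replicate 1, in which miR-6538 was highest, it was 4.32 (0.606), and it was called without TG LPS replicate 2 (6.72, 0.0299) or TG saline replicate 3 (7.27, 0.0409).

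**Figure D4:**
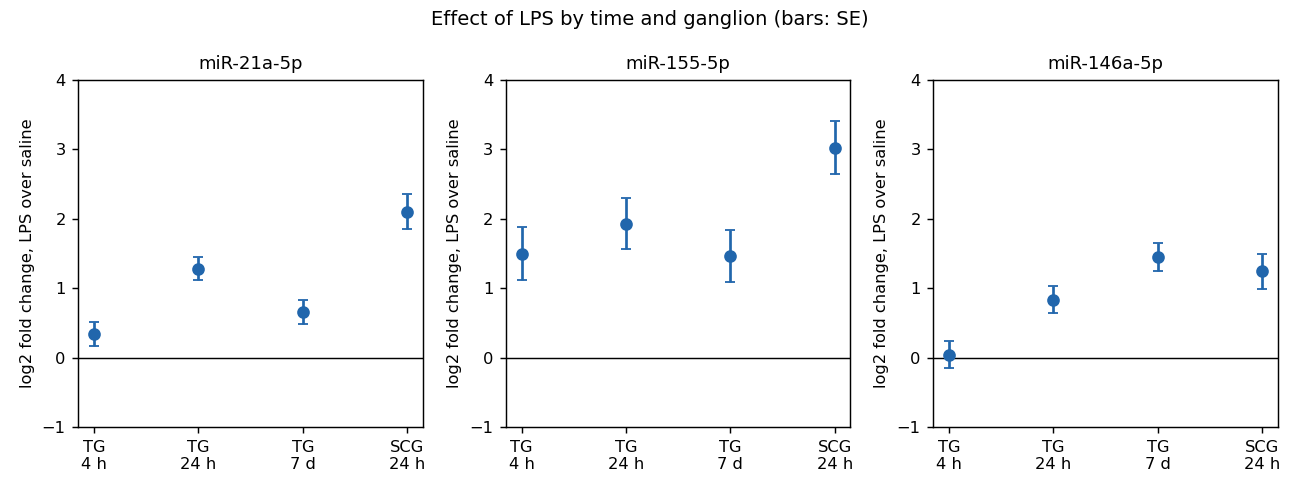
Log2 fold change of LPS over saline (y axis, bars SE) for miR-21a-5p, miR-155-5p and miR-146a-5p in TG at 4 h, 24 h and 7 d (fit of 24 libraries) and in SCG at 24 h (fit of 48 libraries; x axis). Among the times in TG, miR-21a-5p is highest at 24 h and miR-146a-5p at 7 d, and all 3 are higher in SCG than in TG at 24 h.

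The effect was also compared between the sexes, with 2 libraries for each sex and treatment. None of 538 miRNAs had an effect that differed between female and male mice (0%, edgeR, 58 at an unadjusted p under 0.05). MiR-21a-5p had 0.94 ± 0.20 in females and 1.61 ± 0.20 in males, a difference of -0.66 ± 0.28 with an edgeR adjusted p of 0.405. MiR-155-5p had 1.72 ± 0.35 in females and 2.16 ± 0.36 in males. The largest count of sex differences came from leaving out libraries: 8 miRNAs were called without LPS replicate 3 and 4 without saline replicate 1. Each of these fits has 1 library in 1 arm of the contrast, which is assumed to vary like the other groups.

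The tRF pool was dominated by the 5′ ends of a few tRNAs. Parent tRNAs are named as in the deposited annotation, whose tRNA locations are human. The sequences of the main histidine, lysine and glycine fragments and of the tyrosine fragment with the smallest p follow, from the deposited annotation. Capitals are not used in them.
tRF-34-6SXMSL73VL4YHE: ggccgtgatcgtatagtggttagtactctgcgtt
tRF-33-PSQP4PW3FJI0W: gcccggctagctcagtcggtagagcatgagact
tRF-31-P4R8YP9LON4VD: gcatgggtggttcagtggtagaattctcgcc
tRF-18-HSQSD2D2: atccggctcgaaggacca

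The first 3 are 5′-half fragments of tRNAs for histidine, lysine and glycine, and the last is the 3′ end of a tRNA for tyrosine with the added CCA tail. All 5′-half fragments together made up 79.7%, 81.8%, 77.1% and 78.0% of tRF counts in the LPS libraries and 77.6%, 70.6%, 80.0% and 73.0% in the saline libraries. The groups overlapped (two-sided exact permutation test over 70 assignments, p = 0.2, adjusted p over the 5 fragment types 0.629). Fragments of glutamate tRNAs made up 71.5 ± 2.20% of counts after LPS and 69.3 ± 6.16% after saline (SD, n = 4 each). For every 1000000 miRNA counts there were 95405, 55293, 33254 and 58389 tRF counts after LPS and 86361, 24749, 59924 and 26270 after saline, an overlap with an exact permutation p of 0.486.

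Lysine tRNA fragments took 6.81%, 7.92%, 6.46% and 5.43% of tRF counts in the LPS libraries and 4.62%, 4.23%, 5.24% and 5.34% in the saline libraries. These groups did not overlap, which gives the smallest two-sided p that 4 against 4 allows, 0.0286 (exact permutation test), and an adjusted p over the 9 amino acids of 0.257. Histidine tRNA fragments took 8.95%, 9.78%, 9.73% and 9.79% after LPS and 9.08%, 10.3%, 16.2% and 16.5% after saline, with both male saline libraries high. None of the 5 fragment types or 9 amino acids passed the adjusted threshold.

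Of 559 tRFs tested, 0 were called after LPS (0%, edgeR), with 45 at an unadjusted p under 0.05 and 0 called by DESeq2. The median log2 fold change was -0.02. All 4 LPS libraries lay above all 4 saline libraries for 1 tRF (0.179%) and under them for 12 tRFs (2.15%). The 1 above was tRF-40-2R1HPSR9O9337KB6, a 3′-half fragment, at 196, 360, 272 and 245 CPM after LPS and at 192, 170, 184 and 194 CPM after saline (log2 0.53 ± 0.33). LPS replicate 1 and saline replicate 4 were nearly level.

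Among the 26 tRFs that were higher at an unadjusted p under 0.05, LPS replicate 1 was the highest of the 8 libraries for 24. Over all 559 tested it was the highest for 113. The 26 were selected as higher after LPS, so that these counts are not a like comparison. The 26 included tRF-28-86J8WPMN1E0J, a 5′-fragment of a glutamate tRNA, at 1070, 90.0, 64.7 and 290 CPM after LPS and at 98.0, 41, 137 and 75.8 CPM after saline (log2 1.93 ± 0.62, edgeR adjusted p = 0.507). Without LPS replicate 1 the difference was 0.81. The internal glutamate fragment tRF-18-7SERM404 was at 236, 5.0, 58.3 and 84.9 CPM after LPS and at 7.54, 0, 17.9 and 16.8 CPM after saline (3.21 ± 1.11). The valine 5′-half tRF-33-R9JP9PMNH5SYDQ was at 132, 70.03, 19.4 and 34.97 CPM after LPS and at 30.1, 5.86, 17.9 and 16.8 CPM after saline (1.75 ± 0.59). The groups overlapped for all of these, and also for the alanine 5′-tRF tRF-23-R29P4P9LDS, at 188, 65.0, 45.3 and 105 CPM after LPS and at 26.4, 82.0, 11.9 and 16.8 CPM after saline (1.61 ± 0.55). Of these 26, 16 were 5′-tRFs (61.5%, against 20.6% of all tested), which begin at the 5′ end of the tRNA and which the deposited annotation sets apart from the 5′-half type, and 5 were 5′-half fragments. The part of LPS replicate 1 in this set was not tested beyond the values given.

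Of the 19 tRFs that were lower at an unadjusted p under 0.05, 9 were internal fragments (i-tRFs; 47.4%, against 37% of all tested), 4 were 3′-tRFs (21.1%, against 20.8%), 4 were 5′-tRFs (21.1%, against 20.6%) and 2 were 5′-half fragments (10.5%, against 16.3%). The share of 3′-tRFs was thus that of all tRFs tested, and the 4 were all from tyrosine tRNAs. The tyrosine fragment tRF-18-HSQSD2D2, shown above, had the smallest p of all tRFs. It was at 140, 200, 175 and 160 CPM in the LPS libraries and at 203, 340, 339 and 505 CPM in the saline libraries. The groups did not overlap, by a narrow margin between LPS replicate 2 and saline replicate 1. The difference was -1.0 ± 0.32 (log2, SE, edgeR adjusted p = 0.507). Of the 9 tyrosine 3′-tRFs tested, 8 had a fold change below 0, against 290 of all 559 tRFs. Of the 9, 4 were lower at an unadjusted p under 0.05, against 19 of all 559. All LPS libraries lay under all saline libraries for 4 of the 9 and for 12 of all 559. These 9 were singled out after the small p-values in these same data were seen. They are not independent, since some lie within one another: tRF-17-HSQSD2J (atccggctcgaaggacc) is the same 3′ end without its last base. The longer tRF-21-WE884U1DD was at 12, 20.01, 12.9 and 24.98 CPM after LPS and at 26.4, 76.1, 35.7 and 75.8 CPM after saline (-1.53 ± 0.50). The tyrosine fragment tRF-17-884U1D2 was at 631, 840, 680 and 669 CPM after LPS and at 848, 1236, 1071 and 1582 CPM after saline (-0.71 ± 0.26).

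Summed over fragment type and amino acid there were 72 tRF families tested, and 0 were called (0%, edgeR, 5 at an unadjusted p under 0.05). The tyrosine 3′-tRFs had the smallest p. They summed to 2087, 2575, 2309 and 2464 CPM in the LPS libraries and to 2871, 4429, 3260 and 4938 CPM in the saline libraries, the only family with all LPS libraries under all saline libraries (1.39% of families). For any 1 family, 1 of the 70 assignments gives this order. The difference was -0.71 ± 0.19 (log2, SE, edgeR adjusted p = 0.0779). DESeq2 called it with an adjusted p of 0.0248, and edgeR called it without LPS replicate 2, with a difference of -0.81 and an adjusted p of 0.0490. It was -0.42 without saline replicate 2 (edgeR adjusted p = 0.8291). Scaled to the miRNA counts of the same libraries, which gave a median of 0.30 over all families in place of -0.17, it was -0.25 (edgeR adjusted p = 0.488). The same family had a difference of -0.26 ± 0.19 at 4 h and 0.30 ± 0.19 at 7 d, and of -0.58 ± 0.24 in TG and -0.54 ± 0.24 in SCG at 24 h in the fit of all 48 libraries. It was -0.65 ± 0.27 in females and -0.78 ± 0.27 in males.

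**Figure D5:**
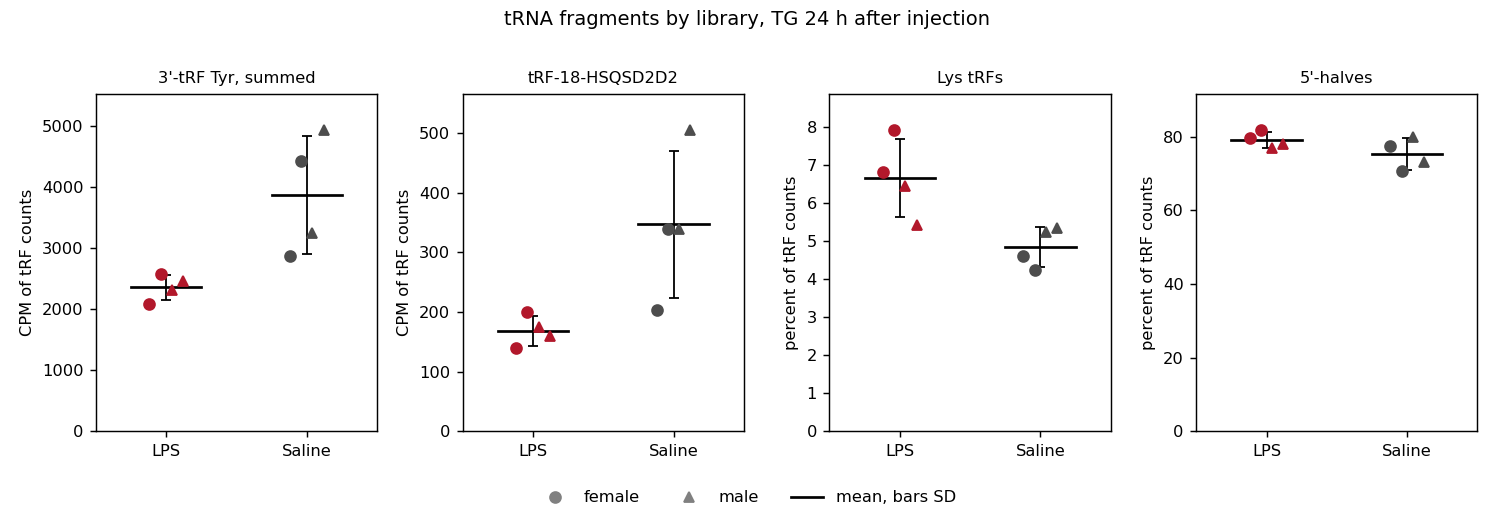
tRNA fragments in each TG library at 24 h (x axis, LPS and saline; circles female, triangles male; mean and SD, n = 4 each; y axes from 0). From the left, summed CPM of tyrosine 3′-tRFs, CPM of tRF-18-HSQSD2D2, and the percentage of tRF counts from lysine tRNAs and from 5′-half fragments; the tyrosine sums are 2087 to 2575 CPM after LPS, all under the saline libraries.

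The next families by p were all internal fragments, and their groups overlapped. Those of methionine tRNAs had 859, 978, 1125 and 1051 CPM after LPS and 1037, 2035, 1175 and 1677 CPM after saline (log2 -0.56 ± 0.22, edgeR adjusted p = 0.419). Those of leucine tRNAs had 2587, 2715, 3429 and 3152 CPM after LPS and 2493, 5111, 4192 and 5524 CPM after saline (-0.54 ± 0.26, edgeR adjusted p = 0.557). Saline replicates 2 and 4 were highest in both. Over single tRFs, the median log2 fold change was -0.20 for 207 i-tRFs, -0.08 for 116 3′-tRFs, -0.02 for 30 fragments of the 3′-half type, 0.18 for 91 of the 5′-half type and 0.25 for 115 5′-tRFs, beside -0.02 for all 559. The share of 3′-tRFs in tRF counts was 2.90%, 4.41%, 5.52% and 3.83% in the LPS libraries and 2.68%, 8.69%, 2.80% and 6.86% in the saline libraries, again highest in saline replicates 2 and 4.

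Among 5′ fragments of histidine tRNA, tRF-24-XSXMSL732Z was at 188, 235, 252 and 245 CPM after LPS and at 399, 428, 262 and 421 CPM after saline, without overlap (log2 -0.70 ± 0.25, edgeR adjusted p = 0.507). The abundant histidine 5′-half shown above was at 60590, 45394, 44515 and 55748 CPM after LPS and at 39298, 28690, 127249 and 69105 CPM after saline, overlapping widely. Its shorter form, tRF-33-6SXMSL73VL4YDN, was at 18518, 12510, 8253 and 15473 CPM after LPS and at 24064, 8991, 32602 and 16363 CPM after saline. The lysine 5′-half was at 53300, 38656, 30514 and 34689 CPM after LPS and at 32745, 10221, 37202 and 17710 CPM after saline (log2 0.63 ± 0.44). The glycine 5′-half was at 29482, 19288, 16590 and 20605 CPM after LPS and at 42788, 10719, 22802 and 12962 CPM after saline (-0.06 ± 0.52). None of these abundant fragments separated the groups. No tRF had an LPS effect that differed between 24 h and 4 h (0 of 559, 0%, 15 at an unadjusted p under 0.05), between 24 h and 7 d (0 of 559, 28 unadjusted), between TG and SCG (0 of 729, 35 unadjusted) or between the sexes (0 of 559, 37 unadjusted), all by edgeR.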

How the data were processed

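The deposited values were whole-number counts per mature miRNA and per tRF, which the authors gave without normalisation. The submitters' processing notes name FastQC 0.11.9 and GRCm39, while no aligner or counter is given in the sources used here. Per the labels' protocols, 140 ng of RNA went into each NEBNext small RNA library, and the RNA integrity number of the sequenced samples averaged 8.3 (6.4 to 9.3). Parent tRNAs are as the deposited annotation names them. The tRNA locations in that annotation are human ones, and the parents were not checked against mouse tRNAs. MiRNA sequences and positions are from RefSeq on GRCm38.p6, and the genes at those positions are from the GENCODE annotation of that build.

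The 24 TG libraries were fitted with 6 groups and a sex term in edgeR 4.0.16 (R 4.3.3; TMM, filterByExpr with a minimum count of 10, quasi-likelihood F-test, robust), with calls at an adjusted p under 0.05. Sums by seed and by tRF family were fitted alike, each with their own library totals and TMM factors. The comparison with SCG used all 48 libraries, and that of the sexes used 12 groups. The SE of an edgeR difference was derived from its test, as the absolute log2 fold change over the square root of F. Shares were tested by exact permutation over 70 assignments. DESeq2 1.42.0, other scaling, no filter, fewer libraries and single libraries left out were tried. The fits were also run on simulated data. These had the same dispersion for all miRNAs and for all tRFs, no sex effect and no outlying library. They do not show how the fits handle libraries that stand apart, as some do here. MiRNAs named are those called, the 15 with the smallest p, the 5 highest and 5 lowest fold changes with an unadjusted p under 0.05, the 10 most abundant and list members; tRFs are the 10 with the smallest p and the 10 most abundant, of which 6 are not reported here. The members and the 20 lists were chosen with earlier results of these data known, and the families beyond those called, the X chromosome stretch, miR-467c-5p and miR-708-3p were chosen after values were seen. Labels do not tie libraries to animals by number, and the fit of 48 libraries treats TG and SCG libraries as independent. EdgeR p-values set a difference against a spread between libraries. That spread was estimated over all libraries of a fit, which are 24 for the main one.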

Additional observations from a re-analysis of the deposited data

Results flagged for a closer look

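In 176 groups of 4 libraries, 16 values stood far from the other 3; chance alone gives this in about 1 group in 20. They are given as values, and no cause was tested.

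LPS replicate 1 was high for miR-6538 (82.9 CPM) and for tRF-24-7SHRMFWRE2, an alanine 3′-tRF (1678 CPM), and low for the share of histidine tRNA fragments (8.95% of tRF counts). LPS replicate 3 was high for the pituitary and neuroendocrine list (38016 summed CPM), and LPS replicate 4 for the muscle list (12723 summed CPM).

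Saline replicate 1 was high for miR-199b-5p (28.1 CPM), for tRF-24-OUR8309N0Y, a serine 5′-tRF (52.8 CPM), and for the muscle list (14189 summed CPM). The same library was low for let-7c-5p (49318 CPM) and for the let-7 family list (281889 summed CPM). Saline replicate 2 was high for the red cell list (8262 summed CPM) and for tRF-24-7SHRMFWRE2 (135 CPM). Saline replicate 3 was high for the epithelium list (1617 summed CPM), for the pituitary and neuroendocrine list (12125 summed CPM) and for tRF-35-RP9830MMUKLY5Z, a leucine 5′-half (65.5 CPM), and low for tRF-24-XSXMSL732Z, a histidine 5′-tRF (262 CPM).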

How the results depend on the processing

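MiR-21a-5p and miR-155-5p kept their direction under every alternative run, and miR-21a-5p lost its call only in the 8 libraries alone. Counts that moved by over 1.5 times follow; the cause was not tested. With no expression filter 20 miRNAs, 17 seed families and 13 tRFs were called, and 18 (24 h minus 4 h), 39 (24 h minus 7 d), 12 (TG minus SCG) and 7 (female minus male) miRNAs and 2 (24 h minus 7 d), 12 (TG minus SCG) and 1 (female minus male) tRFs. In the 8 libraries alone 1 miRNA (miR-146a-5p) and 1 seed family (miR-146) were called. DESeq2 called 1 tRF family. Leaving out 1 library gave 1 to 3 miRNAs, 1 to 3 seed families, 0 tRFs, 0 to 1 tRF families, 0 to 1 miRNAs for 24 h minus 4 h and for TG minus SCG, and 0 to 8 miRNAs and 0 to 3 tRFs for female minus male. The single miRNA for 24 h minus 4 h came without LPS replicate 2; those for TG minus SCG came without LPS replicate 2 or saline replicate 3, and the 3 tRFs without LPS replicate 2, which leaves 1 library in an arm. No alternative chosen after seeing the data (2 SCG libraries left out, 1 at a time) gave a call.

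Among tRF shares, none called, the difference of LPS minus saline changed sign in some settings (percentage points). Leaving out 1 library gave -0.1689 to 0.0157 for 3′-halves, -1.9492 to 0.0527 for 3′-tRFs, -0.8094 to 0.0701 for Ala, -0.1338 to 0.0346 for Asp, -0.1051 to 0.1876 for Gln, -0.0186 to 4.9375 for Glu and -0.1952 to 0.0701 for Val. Without the most abundant tRF it was 0.0069 for 3′-halves, 0.102 for Asp, -2.90 for Glu and 0.0556 for Val, and with filtered tRFs -0.0081 for Gln. TRF counts relative to miRNA counts differed by 0.14 to 0.74 (log2) when 1 library was left out. No paired analysis was possible because the labels carry no replicate numbers. The lowest tRF depth was 91870 counts.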

Other observations

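One fragment was counted in both tables. The sequence that the tRF annotation gives for tRF-23-Y2PPEVNK0Q, assigned to a suppressor tRNA, is that of miR-7689-3p in RefSeq, and it was the only 1 of 13007 tRFs whose sequence equalled a mature miRNA of the count table. It had 7, 1, 5 and 7 tRF counts after LPS and 8, 13, 11 and 9 after saline, and 11, 3, 6 and 8 miRNA counts after LPS and 13, 16, 18 and 9 after saline. Its log2 fold change was -1.27 as a tRF and -0.91 as a miRNA, and neither was called by edgeR. The 2 values come from the same libraries and are not independent.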
